A study of Mus musculus with 16 samples.

Results

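The 9 genes described here, Tap1, Tap2, Tapbp, Psmb8, Psmb9, Psmb10, B2m, H2-K1 and H2-D1, make peptides in the cytosol and present them on MHC class I molecules at the cell surface. They were found as the non-control array probes that carry one of these 9 symbols, which gave 10 probes of 39429, and they are 9 of the 18664 named genes that were tested. The RNA came from CD11b-positive cells, a fraction of myeloid cells such as neutrophils, monocytes and macrophages, taken from mouse spleen or bone marrow. The donors were wild-type mice (WT) or mice labelled STAT4-/-, STAT6-/- or HDC-/-, where STAT4 and STAT6 are transcription factors of cytokine signalling and HDC is histidine decarboxylase, the enzyme that makes histamine. In each genotype one group ate a control diet and the other a high-fat diet for 3 months, which the labels give as a model of atherosclerosis, and all mice were labelled male. Mouse strain and age are not given in the sources used here. Each of the 16 arrays held 1 genotype, tissue and diet, with cells pooled from 5 mice, so no combination was repeated and each comparison below takes its error from the other factors' agreement over arrays.

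Class I molecules show samples of a cell's own proteins to CD8 T cells. The proteasome cuts the proteins, the transporter TAP1/TAP2 pumps the peptides into the endoplasmic reticulum, tapasin (Tapbp) holds the empty class I molecule next to the transporter, and a loaded heavy chain bound to beta-2 microglobulin (B2m) leaves for the surface. Interferon-gamma is known to raise the whole set and to exchange the constitutive catalytic subunits Psmb5, Psmb6 and Psmb7 for the immunoproteasome subunits Psmb8, Psmb9 and Psmb10, and the factor NLRC5 drives class I genes through promoter elements shared by B2m, the heavy chains, Tap1 and Psmb9.

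The promoters of these members are shown because several share the same short elements, and because 2 members that moved most alike on the arrays lie head to head. RefSeq (GRCm38.p6) promoters were matched for 8 of the 9 members. Psmb9 and Tap1 start 225 bases apart on opposite strands of chromosome 17, so the stretch between their starts, chr17:34187331-34187555, printed 5′ to 3′ on the strand of Tap1, is upstream of both. In the sequences, capitals mark TGACG (part of a cAMP-response element and the core of the class I X2 box), CCAAT read on either strand (ATTGG on the other) and, in B2m, an interferon-stimulated response element, searched as GAAA, any 2 bases and GAAA. B2m is shown from chr2:122147537-122147686 on the plus strand, H2-K1 from chr17:34000348-34000398 on the minus strand, and H2-D1 from chr17:35262983-35263033 on the plus strand.
Tap1 and Psmb9: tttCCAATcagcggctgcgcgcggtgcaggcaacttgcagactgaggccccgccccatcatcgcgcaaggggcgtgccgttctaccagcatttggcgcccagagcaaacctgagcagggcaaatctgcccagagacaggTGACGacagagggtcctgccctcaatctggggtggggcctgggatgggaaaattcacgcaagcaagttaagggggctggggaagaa
B2m: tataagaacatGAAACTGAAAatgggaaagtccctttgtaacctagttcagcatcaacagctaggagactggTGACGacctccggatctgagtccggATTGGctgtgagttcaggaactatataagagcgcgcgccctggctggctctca
H2-K1: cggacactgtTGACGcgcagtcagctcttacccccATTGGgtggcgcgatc
H2-D1: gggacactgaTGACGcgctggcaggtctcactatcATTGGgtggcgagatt

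Within the 250 bases before the start, searched on both strands, TGACG was present in 5 of the 8 promoters, those of Tap1, Psmb9, B2m, H2-K1 and H2-D1, against 17.8% of 32851 promoter windows of the same length. Tap1 and Psmb9 share a single match, which begins 86 bases before the start of Tap1. CCAAT was present in 6 of 8, the same 5 and Tapbp, against 33.8% of all windows. Here too Tap1 and Psmb9 share a single match, which begins 222 bases before the start of Tap1. The interferon-stimulated response element was found in B2m only (2.98% of all windows), from 139 to 130 bases before the start, and TTCNNNGAA, the form of a gamma-activated site, in Psmb8 only (7.02%). The Psmb10 window held none of the 4 motifs. The 51 bases shown for H2-K1 and H2-D1 were cut around the TGACG match of each gene. They lie 51 to 1 bases before the start of H2-K1 and 111 to 61 before that of H2-D1. They were identical at 40 positions (78.4%), with a longest identical run of 12, and the TGACG letters are identical by this choice. These matches describe letters, not factor binding.

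Levels below are log2 of the deposited processed signal over that array's 75th percentile, so a value can be compared between arrays for 1 gene but not between genes, whose probes differ. All 10 probes were well above background on all 16 arrays and none was saturated. The median signal of an array ranged from 74.0 to 183.9 and the share of probes well above background from 60.4% to 85.6%. Hdc was low on the HDC arrays (0.83 to 1.77, against 3.91 to 5.64 elsewhere) as their label says. Stat6 was at 2.39 to 2.90 on the STAT6 arrays and at 3.29 or more in WT, but HDC arrays began at 2.85 and the 2 STAT4-label control arrays were at 2.44 and 2.19. Stat4 was highest on the 2 STAT4-label high-fat arrays (3.35 in spleen, 2.60 in marrow) and at 0.42 and 0.27 on the STAT4-label control arrays, against -1.03 to 1.15 for the other genotypes, which goes against the label, so those arrays are named by their label only. The 4 control-diet arrays of the STAT4 label and of HDC had low Y-linked signal (-8.52 to -5.72, against -0.76 to 0.18 on the other 12) although they are labelled male. The STAT4-label high-fat spleen array and the HDC control marrow array correlated better with the other tissue (r = 0.970 and 0.954) than with their own (0.947 each). Itgam, which encodes CD11b, was at 3.00 to 5.90 on all arrays. The 16 arrays lay on 4 slides: WT and STAT4-label arrays of a tissue shared one, STAT6 and HDC arrays another.

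**Figure D1:**
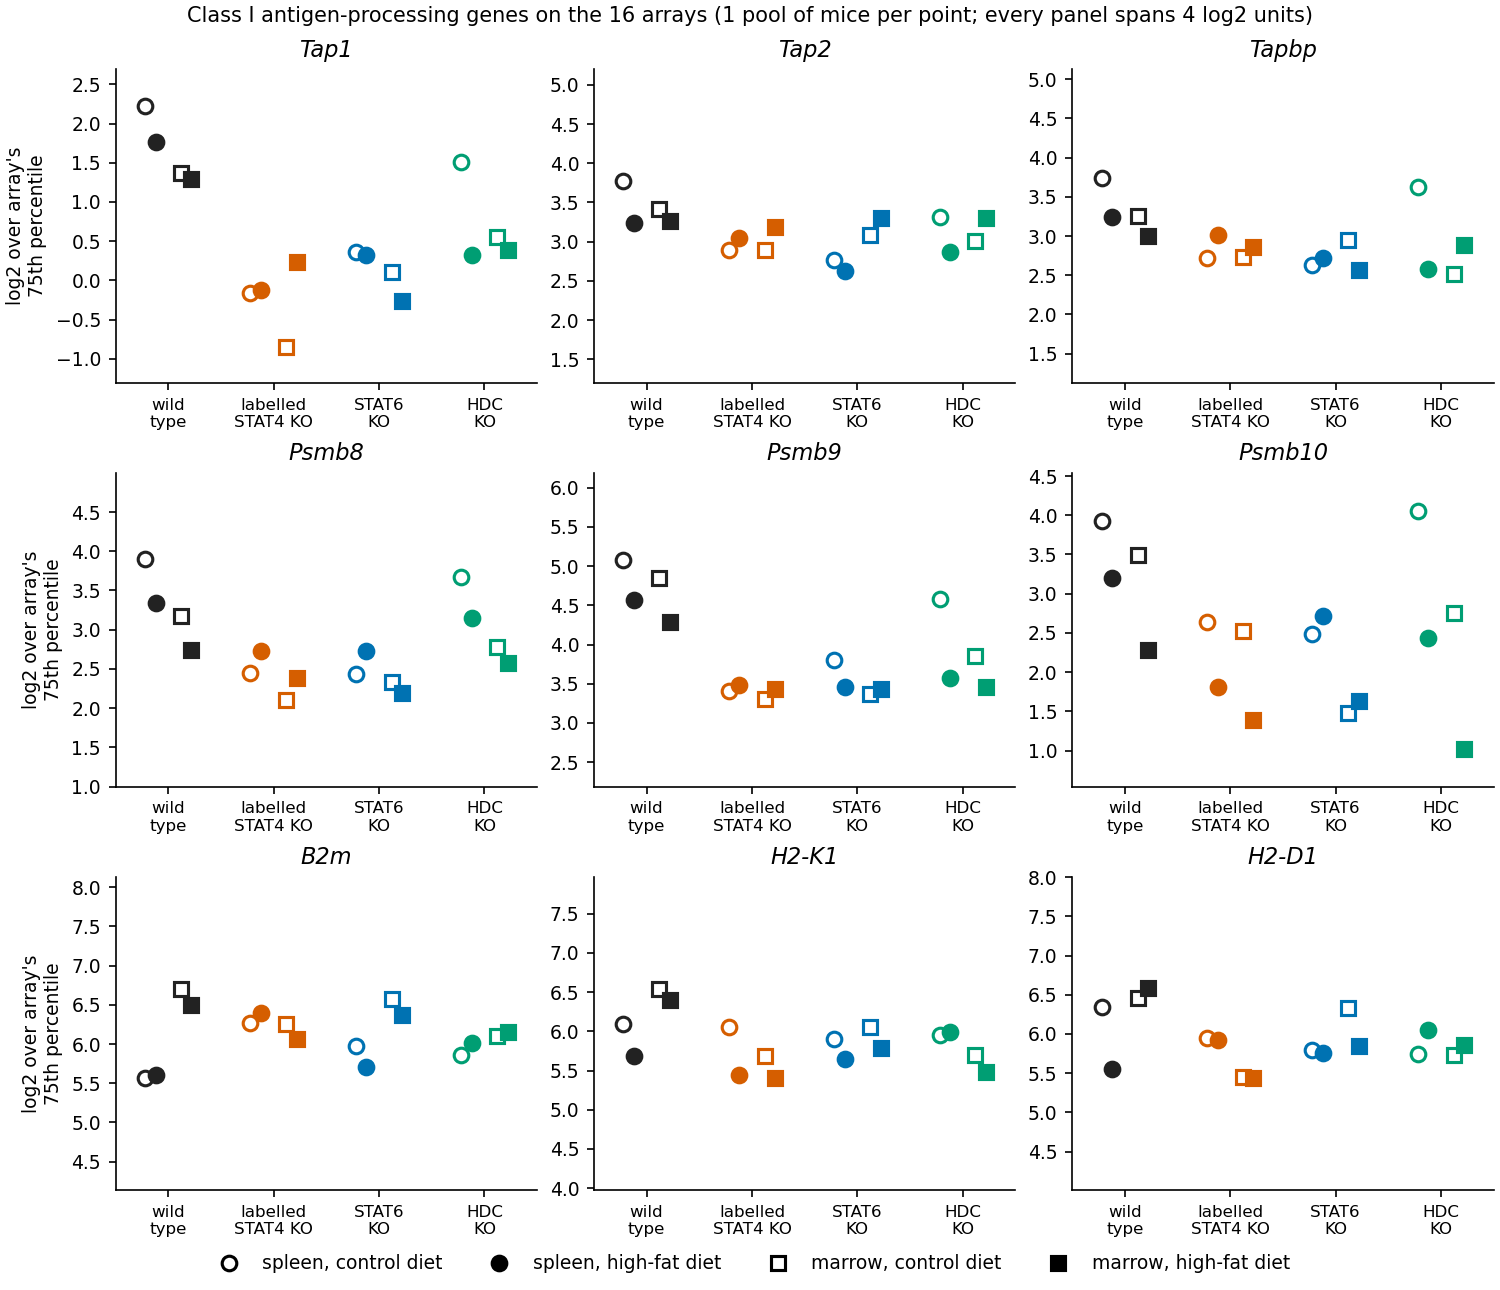
Level of each of the 9 genes on the 16 arrays, as log2 of processed signal over the array's 75th percentile; 1 point per array, by genotype, with tissue and diet marked. Tap1 runs from -0.84 to 2.23 with the WT arrays at the top, while B2m stays between 5.57 and 6.70 with no genotype set apart.

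On average the peptide transporter and its dock were higher in WT than under the knockout labels, most widely so for Tap1. In spleen, Tap1 was at 2.23 and 1.77 in WT on control and high-fat diet, at -0.16 and -0.12 under the STAT4 label, at 0.37 and 0.33 in STAT6, and at 1.51 and 0.32 in HDC. In marrow, Tap1 was at 1.37 and 1.29 in WT, at -0.84 and 0.24 under the STAT4 label, at 0.10 and -0.26 in STAT6, and at 0.55 and 0.39 in HDC. All WT arrays were above every STAT4-label and STAT6 array, and of the 12 arrays with a knockout label only the HDC control spleen array reached into the WT range. The linear processed signal of Tap1 spanned 776.7 to 10922.9. Tap1 was printed in 10 spots on each array, whose log2 signals had an SD of 0.05 to 0.11, far less than the 3.07 log2 range between arrays.

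Tap2, the other subunit of the transporter, was at 3.77, 3.23, 3.41 and 3.26 in WT (spleen control, spleen high-fat, marrow control, marrow high-fat). On the 12 knockout-label arrays it ranged from 2.63 to 3.32, and 9 of them were below every WT array. In high-fat marrow the STAT6 (3.30) and HDC (3.31) arrays were above the WT array. Tapbp, tapasin, was at 3.73, 3.24, 3.26 and 3.00 in WT in the same order. It ranged from 2.52 to 3.62 on the other arrays, with 10 of 12 below all WT arrays and the HDC control spleen array again the highest of them.

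The immunoproteasome subunits followed a similar order. Psmb8, which replaces Psmb5, was in spleen at 3.90 and 3.34 in WT, 2.44 and 2.73 under the STAT4 label, 2.43 and 2.73 in STAT6, and 3.67 and 3.15 in HDC. Marrow levels were 3.18 and 2.74, 2.10 and 2.39, 2.33 and 2.19, and 2.78 and 2.58. The STAT4-label and STAT6 arrays were all below the WT arrays, but by a near tie. Their highest values, 2.7294 and 2.7345, both in high-fat spleen, lay just under the WT high-fat marrow array at 2.7354. The HDC arrays overlapped the WT arrays.

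Psmb9, which replaces Psmb6, was in spleen at 5.07 and 4.57 in WT, 3.40 and 3.49 under the STAT4 label, 3.80 and 3.46 in STAT6, and 4.59 and 3.57 in HDC. Its marrow levels were 4.85 and 4.29, 3.30 and 3.43, 3.36 and 3.44, and 3.85 and 3.46. As for Tap1, whose promoter it shares, 11 of the 12 knockout-label arrays were below all WT arrays and the HDC control spleen array was the exception.

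Psmb10, which replaces Psmb7, spread almost as widely as Tap1. In spleen it was at 3.93 and 3.19 in WT, 2.63 and 1.81 under the STAT4 label, 2.49 and 2.72 in STAT6, and 4.06 and 2.44 in HDC. In marrow it was at 3.50 and 2.28, 2.52 and 1.40, 1.48 and 1.64, and 2.76 and 1.02. Here only 5 of 12 knockout-label arrays were below all WT arrays, and the HDC control spleen array was the highest of all 16.

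On their main probes, the chains of the surface molecule ranged over 1.13 (B2m), 1.13 (H2-K1) and 1.15 (H2-D1) log2 units. That was less than Tap1 and the immunoproteasome subunits but about as far as Tap2 (1.14) and Tapbp (1.22). B2m, the light chain, was in spleen at 5.57 and 5.60 in WT, 6.27 and 6.39 under the STAT4 label, 5.97 and 5.71 in STAT6, and 5.86 and 6.02 in HDC. Marrow levels of B2m were 6.70 and 6.50, 6.26 and 6.06, 6.58 and 6.37, and 6.10 and 6.15. The 2 WT spleen arrays were thus the lowest of all and the WT control marrow array the highest, so no genotype stood apart.

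H2-K1, a classical heavy chain, was in spleen at 6.10 and 5.69 in WT, 6.05 and 5.44 under the STAT4 label, 5.90 and 5.65 in STAT6, and 5.95 and 5.99 in HDC. For marrow the values were 6.54 and 6.40, 5.69 and 5.41, 6.05 and 5.78, and 5.70 and 5.48. The WT arrays led in marrow, and the genotypes overlapped in spleen.

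H2-D1, the other classical heavy chain, was in spleen at 6.34 and 5.56 in WT, 5.95 and 5.92 under the STAT4 label, 5.80 and 5.76 in STAT6, and 5.74 and 6.06 in HDC. In marrow it was at 6.46 and 6.58, 5.46 and 5.43, 6.33 and 5.84, and 5.73 and 5.86. The WT arrays led in marrow, and in spleen the WT high-fat array was the lowest of the 8.

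The second, dimmer H2-K1 probe spread more than the main one: its mean over 4 arrays was 5.07 in WT, 3.74 under the STAT4 label, 4.05 in STAT6 and 4.50 in HDC. Heavy-chain genes are near-identical copies of each other, so which of them a probe reports is uncertain, and the 2 H2-K1 probes were not resolved here. Averaging them moved H2-K1 from -0.53 to -0.93 for the STAT4 label, from -0.34 to -0.68 for STAT6 and from -0.40 to -0.48 for HDC (log2 difference from WT).

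Each knockout label was compared with WT over both tissues and diets. The 3 comparisons share the 4 WT arrays and are not independent of each other. With a separate genotype term in each tissue, no member passed limma's test adjusted over all 28781 features in any of them, where few features passed at all: 5 (0.0174%) for the STAT4 label, 9 (0.0313%) for STAT6 and 43 (0.149%) for HDC. At an unadjusted p under 0.05, the members lower than WT numbered 5 of 9 for the STAT4 label, 4 for STAT6 and 2 for HDC, against 1.3%, 3.88% and 7.72% of all features. The median log2 difference of the members was -0.55, -0.59 and -0.40, against 0.21, -0.004 and -0.06 over all features.

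For Tap1, the log2 difference from WT was -1.89 ± 0.31 (SE; 95% interval -2.58 to -1.19; adjusted p = 0.137) under the STAT4 label, which shares slides with WT. With genotype terms shared by both tissues it passed limma's test at the same size (adjusted p = 0.0440). Adding slide as a random block to that same model gave nearly the same fit (adjusted p = 0.0444), with a slide correlation of -0.0068. The block is therefore not a second, separate pass. The Tap1 difference was -1.53 ± 0.31 (adjusted p = 0.262) in STAT6 and -0.97 ± 0.31 (adjusted p = 0.308) in HDC. Both were on other slides than WT, so that slide and genotype cannot be told apart there. All 4 tissue-and-diet pairs were negative in each of the 3. Without the 4 arrays of low Y-linked signal the differences were -1.49 for the STAT4 label (adjusted p = 0.179) and -1.19 for HDC (adjusted p = 0.277).

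Psmb9 came next, at -1.29 ± 0.26 (STAT4 label, adjusted p = 0.239), -1.18 ± 0.26 (STAT6, 0.284) and -0.83 ± 0.26 (HDC, 0.292), again with all 4 pairs negative in each. Psmb10 differed by -1.13 ± 0.36, -1.14 ± 0.36 and -0.66 ± 0.36, and Psmb8 by -0.87 ± 0.26, -0.87 ± 0.26 and -0.24 ± 0.26, in the same order. Tapbp and Tap2 were nearer to WT, from -0.59 to -0.29 across the 3 labels. H2-K1 and H2-D1 lay between -0.55 and -0.30, and B2m at 0.15, 0.07 and -0.06. The intervals of B2m included 0 under each label, and B2m was not alone in this. Only 5, 4 and 2 of the 9 members had an unadjusted limma p under 0.05 (STAT4 label, STAT6, HDC). The intervals of the remaining members included 0 as well. Tap1 and Psmb9 thus lay furthest from 0 under each label and B2m nearest, while the order of the others varied with the label; differences between members were not tested.

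Without any overlap between the 4 arrays of a label and the 4 WT arrays, 4 members were lower under the STAT4 label (Tap1, Tap2, Psmb8, Psmb9) and 4 in STAT6 (Tap1, Tapbp, Psmb8, Psmb9), against 0.744% and 1.21% of all features. For Psmb8 this was a near tie under both labels, at most 2.7294 and 2.7345 against 2.7354 on the lowest WT array. In HDC no member was lower without overlap, where 1.82% of features were. Over all 12 knockout-label arrays against the 4 WT arrays, a comparison added after the values were seen, no member was without overlap (0.0799% of features) and none passed the adjusted test, which 18 features (0.0625%) did. There 5 members were lower at an unadjusted limma p under 0.05, against 3.01% of features, with Tap1 at -1.46 ± 0.25 (adjusted p = 0.145) and Psmb9 at -1.10 ± 0.21 (adjusted p = 0.189).

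**Figure D2:**
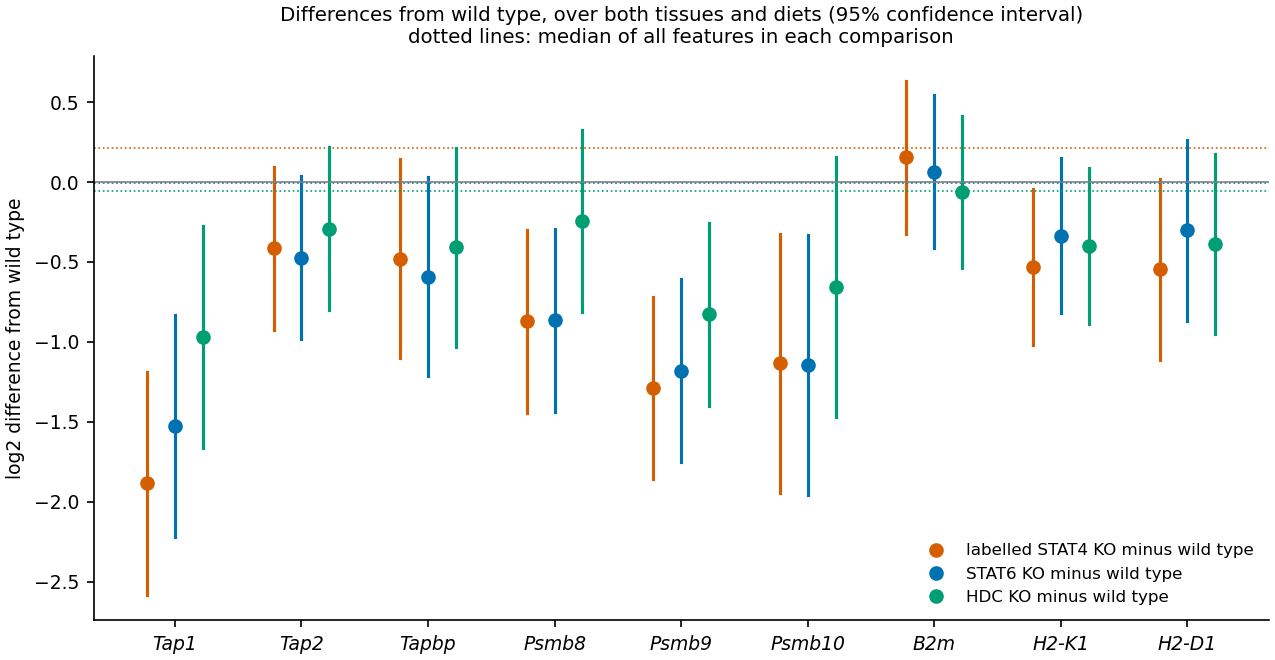
Log2 difference of each of the 9 genes from wild type under each knockout label, over both tissues and diets; points are limma estimates and bars their 95% intervals. Tap1 and Psmb9 lie lowest under each label (Tap1 at -1.89, -1.53 and -0.97) and B2m near 0; no gene passed the adjusted test in the model plotted, and Tap1 under the STAT4 label passed with genotype terms shared by both tissues (adjusted p = 0.0440).

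HDC and STAT6 arrays shared slides, so this pair was compared directly. Only 3 features (0.0104%) passed the adjusted limma test and no member did. Psmb8 was higher in HDC by 0.62 ± 0.26 in all 4 pairs (unadjusted p = 0.036, adjusted p = 0.755), Tap1 by 0.56 ± 0.31 in 3 of 4 pairs, Psmb10 by 0.49 ± 0.36 and Psmb9 by 0.35 ± 0.26. The widest pair of Tap1 was control spleen, where HDC stood 1.14 above STAT6, and the 95% interval of its mean difference ran from -0.14 to 1.25. The other members differed by between -0.13 and 0.18.

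Partners of the pathway did not pass limma's adjusted test against WT either; at an unadjusted p under 0.05 there were 1, 2 and 0 loading partners, 6, 5 and 3 regulators and 6, 4 and 1 other class I chains (STAT4 label, STAT6, HDC), of 9, 20 and 15 measured. Over all features that share was 10.2%, 6.79% and 10.7%, so the loading partners and, for HDC, the class I chains and the regulators were not clearly above it. Among 9 measured loading partners, Tapbpl, a tapasin relative that edits peptides, differed by -0.94, -0.97 and -0.50 (STAT4 label, STAT6, HDC) while the list medians were 0.06, -0.20 and 0.04. Of these partners, 5, 3 and 5 were above WT, by up to 0.20, 0.17 and 0.36. Among 8 proteasome activators and chaperones, Psme1, the PA28-alpha activator subunit, differed by -0.65, -0.46 and -0.18, with medians of -0.01, 0.08 and 0.18. In that list 4, 5 and 5 genes were above WT, by up to 0.37, 0.41 and 0.52. The 14 core 20S subunits that interferon does not exchange had medians of 0.01, 0.10 and 0.08 and stayed between -0.16 and 0.28. The catalytic trio that the immunoproteasome replaces was in this list: Psmb5, Psmb6 and Psmb7 ranged over only 0.90, 0.76 and 1.07 log2 units across all arrays, against 1.79, 1.77 and 3.03 for their inducible counterparts.

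Regulators of class I genes were led by Nlrc5, the class I transactivator. In spleen Nlrc5 was at 4.47 and 3.58 in WT, 1.58 and -0.81 under the STAT4 label, 1.62 and 1.91 in STAT6, and 3.77 and 1.97 in HDC. In marrow it was at 4.29 and 2.55, 0.05 and -0.54, 0.14 and -0.29, and 2.11 and -0.96. The WT arrays were above all STAT4-label and STAT6 arrays. Its log2 difference from WT was -3.65 ± 0.51 (adjusted p = 0.0988), -2.88 ± 0.51 (adjusted p = 0.221) and -2.00 ± 0.51 (adjusted p = 0.204), below each member's. Irf1, an interferon-induced activator of the pathway, differed by -1.06, -0.88 and -1.12. Of the 20 regulators measured, 3, 2 and 3 were positive, with medians of -0.19, -0.36 and -0.32.

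Other class I and class I-like heavy chains (15 measured of 20) had 10, 11 and 7 members below WT, with medians of -0.32, -0.20 and 0.12. H2-T10 differed by -1.60 under the STAT4 label and -1.27 in STAT6, and H2-Q10 by -1.39 under the STAT4 label. Above WT were 5, 4 and 8 of these chains, by up to 0.76, 1.11 and 0.89. The 6 cytosolic peptidases, which trim peptides, had medians of 0.24, 0.13 and 0.19. The 9 measured class II genes had medians of -0.94, -0.59 and -0.06.

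The interferon-gamma response list (11 genes) was below WT for every gene under every label, with medians of -2.21, -1.95 and -0.75, and 0 of 11 passed the adjusted limma test in each, though 10, 10 and 2 genes had an unadjusted p under 0.05. Of all features, 10.2%, 6.79% and 10.7% were under 0.05, so the HDC count was not clearly above that share. Igtp, an interferon-inducible GTPase, differed by -3.10, -2.87 and -1.57. The type I interferon list (18 measured) had medians of -1.21, -1.13 and 0.11. Its sole call in each comparison was Oas1a, higher than WT and well above background on all 12 knockout-label arrays but on none of the 4 WT arrays. The mean level of the interferon-gamma list was highest on the WT control spleen array (3.03) and the HDC control spleen array (2.56), the 2 arrays on which Psmb8 and Tapbp were also highest. The mean type I level was highest on the HDC control arrays, at 4.20 in spleen and 3.24 in marrow, against 0.49 to 2.27 elsewhere.

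Markers of other cells were counted beside these results. In each of the lists for B, T, natural killer, conventional dendritic, red pulp macrophage and erythroid cells, 0 markers passed the adjusted limma test under any label. At an unadjusted p under 0.05 there were 5 of 7, 2 and 0 natural killer markers (STAT4 label, STAT6, HDC), 1, 1 and 0 of 8 B cell markers, 0 of 7 T cell markers in each, 2, 1 and 0 of 7 conventional dendritic markers, 0, 0 and 3 of 7 red pulp markers and 0, 3 and 2 of 5 erythroid markers. Beside these counts, 10.2%, 6.79% and 10.7% of all features were under 0.05. The B and T cell markers were not clearly above that share under any label. B cell medians were -0.98, -0.45 and 0.11, and T cell medians -0.87, -0.26 and 0.31. The natural killer list (7 measured) had medians of -1.49, -0.95 and -0.27 for the STAT4 label, STAT6 and HDC, and its mean level ranged from -3.84 to 1.11 on WT arrays and from -4.71 to 1.29 on the others. The erythroid list (5 measured) had a median of 1.33 over the 3 labels together. The part of these cells in the levels of the members was not tested. In pooled cells, a smaller share of cells with a transcript and less transcript per cell cannot be told apart.

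Spleen was compared with marrow over the 8 pairs of the same genotype and diet, each tissue on its own slides, so that tissue and slide cannot be told apart. The immunoproteasome subunits were higher in spleen in every pair, and 1 member, Psmb10, rose past the threshold. The background is high here: 9228 features (32.1%) passed in either direction and 4250 (14.8%) were higher in spleen, so 1 of 9 is not above it. At an unadjusted limma p under 0.05 there were 3 members, Psmb8, Psmb10 and B2m, against 43.5% of features. Psmb8, Psmb9 and Psmb10 were higher in all 8 pairs, as were 9.11% of features.

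Psmb10 was higher in spleen by 0.83 ± 0.26 log2 units (95% interval 0.26 to 1.41; 1.78-fold; adjusted p = 0.0334), with pairs from 0.11 to 1.41. The call was lost when any of 12 of the 16 arrays was left out, and without the 4 arrays of low Y-linked signal the difference was 0.82 (adjusted p = 0.151); without the 2 arrays nearer the other tissue it was 0.97 (adjusted p = 0.0329). Psmb8 differed by 0.51 ± 0.18 (adjusted p = 0.0541) and Psmb9 by 0.25 ± 0.18 (adjusted p = 0.326). Tap1 was higher in 6 of 8 pairs, by 0.43 ± 0.22 (adjusted p = 0.167).

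Tapbp and Tap2 differed by 0.18 ± 0.20 and -0.12 ± 0.16, and the heavy chains H2-K1 and H2-D1 by -0.04 ± 0.15 and -0.07 ± 0.18. B2m was lower in spleen in 6 of 8 pairs, with a mean difference of -0.41 ± 0.15 (adjusted p = 0.0607), with WT pairs the widest and STAT4-label pairs of the other sign. For Tap2, H2-K1 and H2-D1 the sign turned positive under quantile normalization (0.18, 0.22 and 0.18), which also brought Psmb8 (0.78, adjusted p = 0.00874) and Psmb9 (0.55, adjusted p = 0.0332) past the threshold.

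**Figure D3:**
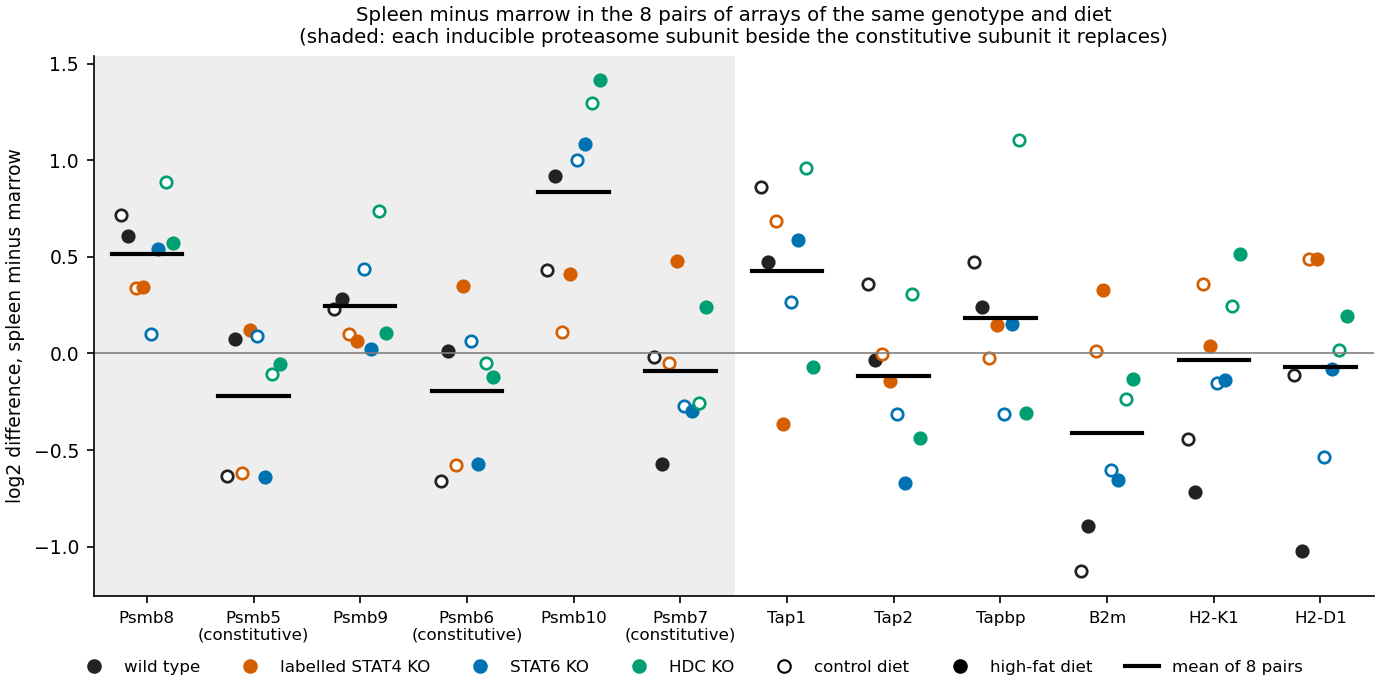
Spleen minus marrow log2 level of each of the 9 genes, and of the constitutive subunits Psmb5, Psmb6 and Psmb7, in the 8 pairs of the same genotype and diet. Points are pairs and the horizontal bar is their mean. All 8 pairs of Psmb8, Psmb9 and Psmb10 lie above 0, and 6 of 8 pairs of B2m lie below it.

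The inducible subunits were then set against the constitutive ones they replace, pair by pair. Between tissues, the change of Psmb8 exceeded that of Psmb5 by 0.73 ± 0.47 (SD, n = 8 pairs), in 8 of 8 pairs (two-sided exact sign-flip test, p = 0.0078, the smallest possible; 0.047 after adjustment over 6 such tests). For Psmb10 over Psmb7 the excess was 0.93 ± 0.64 (SD, n = 8) in 7 of 8 pairs (exact p = 0.0156, adjusted 0.047). For Psmb9 over Psmb6 it was 0.44 ± 0.38 (SD, n = 8) in 7 of 8 pairs (exact p = 0.031, adjusted 0.0625). The constitutive subunits themselves were lower in spleen on average, at -0.22 (Psmb5), -0.19 (Psmb6) and -0.09 (Psmb7). Being differences of 2 probes on the same array, these values do not depend on the array's scaling, and with any 1 array left out the mean excess stayed at 0.65 to 0.84 for Psmb8 over Psmb5 and 0.84 to 1.07 for Psmb10 over Psmb7. The call was lost in 14 of 20 alternative settings for Psmb8 over Psmb5, and in 14 of 20 for Psmb10 over Psmb7. With 7 pairs the exact test can pass the adjustment only if more than 1 of the 6 tests has a p near the smallest possible. How much of the loss comes from the smaller number of pairs was not tested.

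Of the loading partners, 3 of 9 rose in spleen: Tapbpl by 1.02 (adjusted p = 0.00237), Calr, the chaperone calreticulin, by 0.91 (adjusted p = 0.00633) and Pdia6 by 0.69 (adjusted p = 0.0222); the list median was 0.23, against -0.06 over all features. Psmg2, a proteasome assembly chaperone, was the only one of 8 activators and chaperones to change, and fell by 0.80. Of the 14 core 20S subunits, Psma1 (-0.77) and Psma2 (-0.53) fell and none rose. Of all features, 14.8% were higher in spleen and 32.1% passed in either direction. The counts of activators and chaperones and of core 20S subunits were not above these shares.

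Among the other class I chains, 6 of 15 rose in spleen and 2 fell, with a median of 0.81. Fcgrt, the neonatal Fc receptor chain, was higher by 1.97 and Mr1, which presents vitamin metabolites, by 1.83; H2-Q6 fell by 0.77, and H2-T3, well above background on only 3 of 8 spleen arrays, was the other that fell. Nlrc5 rose by 1.34 (adjusted p = 0.0187) and Irf8, a myeloid and lymphoid factor, by 1.75, while Ifnar2 (-0.83) and Nfkb1 (-0.59) were the 2 of 20 regulators that fell. The peptidases Lap3 (1.00) and Thop1 (0.82) were higher in spleen and Npepps (-1.15) was lower. Beside these counts, 14.8% of all features were higher in spleen and 32.1% passed in either direction. The regulators were not above either share.

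Class II genes rose in spleen in 8 of 9 cases, with a median of 3.20, led by H2-Oa (4.69) and H2-DMb2 (4.32), and 5 of 11 interferon-gamma response genes rose, led by Cxcl9 (3.86) and Gbp5 (1.97). For these and the marker counts below, the share over all features higher in spleen was 14.8%. No type I interferon gene of 18 passed the adjusted limma test (1 had an unadjusted p under 0.05), with 12 of 18 above 0. Markers of other cells moved with tissue: 8 of 8 B cell markers (median 3.89), 6 of 7 T cell markers (median 3.28), 7 of 7 natural killer markers (median 2.60), 7 of 7 conventional dendritic markers (median 2.81) and 5 of 7 red pulp macrophage markers (median 2.53) were higher in spleen. The part of these cells in the difference of the immunoproteasome subunits was not tested.

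High-fat feeding was compared with control diet within each genotype and tissue, always on 1 slide. No member and no feature passed the adjusted limma test in spleen (0% of 28781), in marrow (0%), over both tissues (0%) or for the difference between tissues (0%). At an unadjusted p under 0.05 there were 1289 features in spleen, 1751 in marrow, 3660 over both tissues and 316 for the difference. Of the members, none was under 0.05 in spleen (1.79% of features were, and lower), and Psmb10 alone was in marrow (2.32%) and over both tissues (4.04%). All 9 members were negative over both tissues, with a median of -0.15, against 0.13 over all features.

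The diet difference of Psmb10 was -0.86 ± 0.26 over both tissues (95% interval -1.43 to -0.29; unadjusted p = 0.0076, adjusted p = 0.384), at -0.74 in spleen and -0.98 in marrow. In 6 of 8 pairs it was lower on the high-fat diet, most in HDC (-1.62 in spleen, -1.74 in marrow), while the STAT6 pairs were 0.23 and 0.15. The 2 HDC pairs and the 2 STAT4-label pairs each set an array of low Y-linked signal against one of ordinary signal, and without those 4 arrays the difference was -0.39 (adjusted p = 1.00). Against its constitutive counterpart Psmb7, the diet change of Psmb10 was -1.14 ± 1.14 (SD, n = 8 pairs), negative in 6 of 8 (exact sign-flip p = 0.047, adjusted 0.0703). Psmb8 over Psmb5 (0.12) and Psmb9 over Psmb6 (-0.28) had exact p-values of 0.57 and 0.14 by the same test.

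H2-K1 was lower on the high-fat diet in 7 of 8 pairs, including all 4 in marrow, with a mean difference of -0.27 ± 0.15 (adjusted p = 0.404). Psmb9 differed by -0.31 ± 0.18 (adjusted p = 0.404). Tap1 was at -0.41 in spleen and 0.12 in marrow, and its pairs ran from -1.19 (HDC spleen) to 1.08 (STAT4-label marrow), so the sign depended on the pair. The HDC spleen pair was also the most negative one of Psmb9 (-1.01) and Tapbp (-1.04). Tap2, Tapbp, Psmb8, B2m and H2-D1 lay between -0.16 and -0.04.

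**Figure D4:**
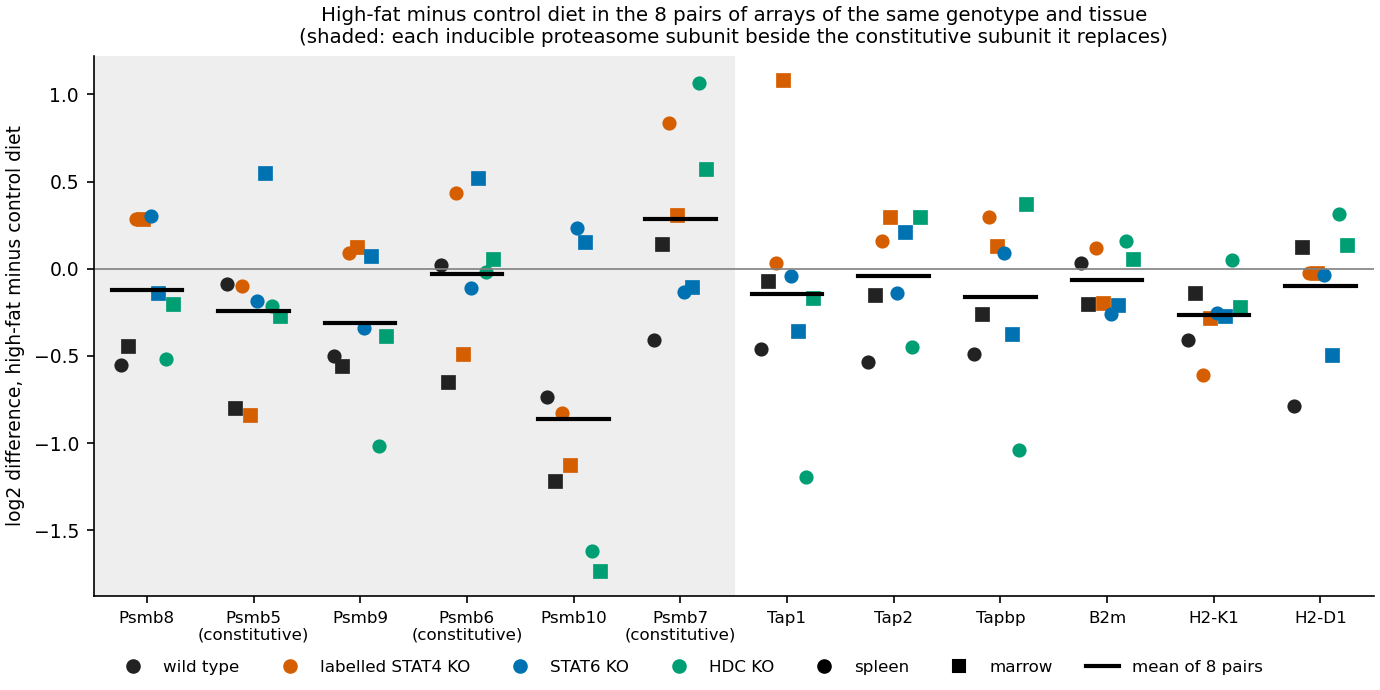
High-fat minus control log2 level of each of the 9 genes, and of the constitutive subunits Psmb5, Psmb6 and Psmb7, in the 8 pairs of the same genotype and tissue. Points are pairs and the horizontal bar is their mean. Psmb10 has the lowest mean (-0.86), with the STAT6 pairs above 0 and both HDC pairs below -1.6.

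A fit that also held genotype-by-tissue, genotype-by-diet and tissue-by-diet terms asked whether diet acted differently in the genotypes. No member passed: 0% of features did for the STAT4 label, 0% for STAT6 and 2 features (0.00695%) for HDC. Psmb10 had a diet difference 1.17 more positive in STAT6 than in WT (unadjusted p = 0.036, adjusted p = 0.959) and differed by -0.70 from it in HDC (adjusted p = 0.545). At an unadjusted limma p under 0.05 there were 1466 features for the STAT4 label, 1325 for STAT6 and 3536 for HDC.

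No gene of the pathway lists passed limma's adjusted diet test either. Over both tissues the unadjusted p was under 0.05 for 9 of 11 interferon-gamma genes, 9 of 18 type I genes, 4 of 20 regulators and 0 of 14 core 20S subunits. Over all features that share was 12.7%, and the regulators were not clearly above it. The HDC and STAT4-label pairs set control arrays of low Y-linked signal against ordinary ones. Mean type I levels were highest on the HDC control arrays (4.20 in spleen, 3.24 in marrow). Diet and these arrays cannot be told apart in those pairs. Nlrc5 had a diet difference of -1.33 ± 0.36 over both tissues (unadjusted p = 0.004, adjusted p = 0.384). The interferon-gamma list was negative in 11 of 11 genes (median -1.12, with Cxcl9 at -1.90 and Iigp1 at -1.58) and the type I list in 18 of 18 (median -0.90, with Ifi44 at -1.73 and Oasl2 at -1.12). Class II genes were negative in 9 of 9 (median -0.75), the other class I chains in 13 of 15 (median -0.17), the loading partners in 8 of 9 (median -0.16), and the 14 core 20S subunits in 6 (median 0.02). The natural killer (median -1.22) and B cell (median -0.94) marker lists were also lower, with 0 markers called by limma and 5 and 4 markers at an unadjusted p under 0.05. Their part in the diet differences was not tested.

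Members were also compared among themselves, with each gene centred on its tissue mean over the 16 arrays, which share slides, scaling and WT controls. Tap1 and Psmb9 had the highest correlation (Pearson r = 0.94), followed by Tap1 and Psmb8 (0.90) and Psmb8 and Psmb9 (0.88). Tap2 went with Tapbp (0.85) and H2-K1 with H2-D1 (0.81), whereas Tap1 and B2m were at -0.34. Against the mean of the other 8 members, r was 0.96 for Psmb9, 0.87 for Psmb8, 0.85 for Tap1, 0.78 for Tapbp, 0.73 for Tap2, 0.69 for Psmb10, 0.64 for H2-K1, 0.52 for H2-D1 and -0.15 for B2m. B2m was thus the member least like the rest.

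Of 12799 other named genes measured on all 16 arrays, the 10 most like the mean of the 9 members were Igtp (r = 0.94), Gbp2 (0.93), Tgtp1 (0.92), Zbp1 (0.92), Gbp2b (0.91), Parp10 (0.91), Irgm1 (0.90), H2-Q6 (0.90), Trafd1 (0.90) and Nlrc5 (0.90). The median r over all genes was -0.07. In this ranking, Igtp, Gbp2, Tgtp1 and Irgm1 belong to the interferon-gamma list, H2-Q6 to the other class I chains and Nlrc5 to the regulators. Irf1 was at 0.86. Igtp ranged from 3.19 to 5.37 on WT arrays and from 0.62 to 4.62 on the others, so that its groups overlapped as those of the members did.

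**Figure D5:**
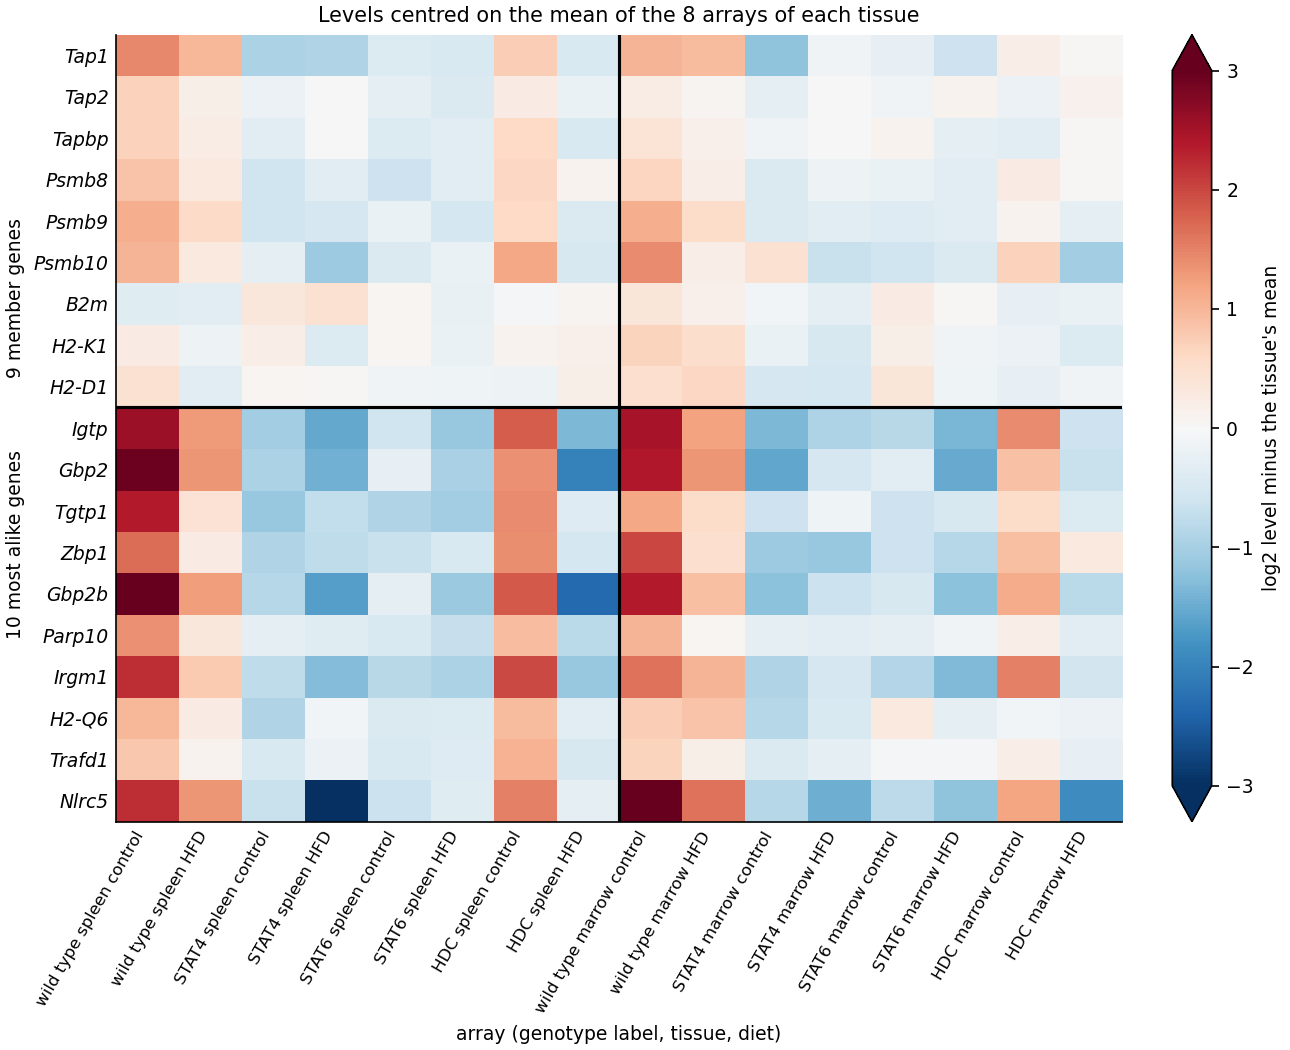
Level of each of the 9 genes and of the 10 genes most like their mean, minus the gene's mean in that tissue, on the 16 arrays in log2 units, as colour. WT arrays and the HDC control spleen array are above the tissue mean for Tap1, Psmb9 and the interferon-induced genes. The HDC control marrow array is also above it for Tap1 (0.20), Psmb9 (0.10) and Igtp (1.42), though not for H2-Q6 (-0.09). B2m does not follow these genes.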

How the data were processed

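Per the file headers, each of the 16 Agilent 1-colour (Cy3) arrays was scanned and extracted by the authors with Agilent Feature Extraction 11.0.1.1, and the deposited values are processed signal intensities, background-subtracted and linear. From these intensities, log2 was taken, each array's 75th percentile over non-control probes was subtracted, spots of a probe were averaged, and 305 flagged probes were left out. Of 39429 probes, 27234 (69.1%) carried a symbol; a gene was represented by its brightest probe, and features well above background on at least 2 arrays (28781, of which 18664 named) were tested. limma 3.58.1 (R 4.3.3; lmFit, eBayes) fitted a mean per genotype and tissue plus a diet term per tissue (6 residual degrees of freedom), and a second model, which adds genotype-by-diet terms (leaving 3 residual degrees of freedom), served for diet by genotype; Benjamini-Hochberg adjustment ran over all features, with calls at 0.05. The fit was tested on simulated data. Arrays were grouped by the labels; no combination was repeated, so p-values measure the spread of pools across factors, and the number of arrays limits the precision. Members and gene lists were chosen with earlier results of these data known. All members and the 10 genes most like them are named. In each list, names were drawn from the 2 called genes of largest change per direction or, with none called, the 2 of smallest p per direction. Not all of these are named, and in the comparisons with WT those named are mostly below it. Any other called gene may be named. A list gene named in one comparison may also be given in others, though not in all of them. Alternatives were median and quantile scaling, normexp background correction, other filters, the mean of all probes, a variance trend, shared genotype terms, slide as a random block, and leaving out arrays. Motif counts and figures were made with Python 3.11.15 and matplotlib 3.10.9.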

Additional observations from a re-analysis of the deposited data

How the results depend on the processing

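For the 9 members in 6 comparisons (54 results), 1424 of 1485 values under an alternative kept their direction and side of the threshold, for the 6 inducible against constitutive subunit results 84 of 120, for the 13 counts of members called 276 of 297, and for the 13 counts of features called 223 of 297. Members called between spleen and marrow numbered 1, but 3 with quantile normalization, 4 with normexp background correction and quantile, 3 with the filter at 8 arrays, 3 with a variance trend, 2 with genotype terms shared by both tissues, 2 with slide as a random block (chosen after seeing the data, as was leaving out arrays of low Y-linked signal), 0 without those 4 arrays, and 0 to 1 when each array was left out in turn. Members called for the STAT4 label numbered 0, but 1 (Tap1, limma adjusted p down to 0.044) with shared genotype terms and with slide as a random block. The slide block was added to the model with shared genotype terms, at a slide correlation of -0.0068, so it is not a separate check. The cause of these shifts was not tested. Scaling by the array median moved the median of all features for the STAT4 label from 0.21 to 0.04. B2m reversed to -0.019 (STAT4 label), -0.011 (STAT6) and -0.042 (all labels) with median scaling, to -0.0059 (STAT6) and 0.10 (HDC) with quantile, and to -0.045 (STAT6), 0.038 (HDC) and 0.039 (tissue) with normexp. Between tissues H2-D1, H2-K1 and Tap2 reversed to 0.18, 0.22 and 0.18 with quantile and to 0.17, 0.16 and 0.16 with normexp. Without the 2 arrays nearer the other tissue, H2-K1 between tissues was 0.013 and B2m in HDC 0.0026; without the arrays of low Y-linked signal, H2-D1 between tissues was 0.0083 and B2m in HDC 0.071. Psmb9 over Psmb6 between tissues passed with quantile (0.47) and normexp (0.41), and Psmb8 over Psmb5 under diet reversed to -0.031 with the mean of all probes. With each array left out in turn, the range between tissues was -0.18 to 0.038 for H2-D1, -0.095 to 0.023 for H2-K1, 0.65 to 0.84 for Psmb8 over Psmb5, 0.38 to 0.54 for Psmb9 over Psmb6 and 0.84 to 1.07 for Psmb10 over Psmb7. Under diet it was -0.17 to 0.010 for H2-D1, -0.11 to 0.012 for Tap2, -0.022 to 0.24 for Psmb8 over Psmb5 and -0.41 to -0.18 for Psmb9 over Psmb6, and against WT -0.025 to 0.16 for B2m in STAT6 and -0.12 to 0.0026 in HDC. With the labels' replicate number as a block, no paired analysis was possible because that number is the same for all arrays of a tissue; arrays paired by genotype, diet or tissue were compared in the text.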
